A study of Mus musculus with 3 samples.

Results

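The suppressor of cytokine signalling (SOCS) family comprises Socs1 to Socs7 and Cish, and its 8 genes were picked by symbol out of 55536 annotated genes. Their polyadenylated transcripts were measured in macrophages grown from the bone marrow of C57BL/6J mice. The cells received 100 ng/ml lipid A for 12 h, were kept without it for 12 h, and then received 100 ng/ml again for 480 min. Lipid A is the toxic lipid of bacterial lipopolysaccharide and a ligand of the innate receptor TLR4. The labels contradict themselves, with lipoprotein A in the treatment field and lipid A in the longer description, which is followed here. The 3 libraries, replicates 1, 2 and 3, carry this same treatment and form 1 group, so what follows describes levels and differences between libraries, and treatment effects cannot be read from it. They share 1 donor record, and nothing says that they came from separate animals or cultures, so p-values measure only the spread between these libraries, which may be technical. Animal age and sex were not collected, per the labels.

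SOCS proteins are feedback brakes. Cytokine receptors activate JAK kinases, which phosphorylate STAT transcription factors, and STATs switch on SOCS genes. Each member has a central SH2 domain that binds phosphorylated tyrosines and a C-terminal SOCS box that recruits elongins and a cullin ubiquitin ligase, and Socs1 and Socs3 also block the JAK kinase directly. In macrophages Socs1 is known for restraining interferon signalling and Socs3 for restraining signalling through the interleukin-6 receptor chain gp130.

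Expected counts totalled 24596382, 54016971 and 43127749 in replicates 1, 2 and 3. Such counts divide a read that matches several transcripts among them. Levels are in TPM, which scales counts by transcript length and by library size, and are alignment-based unless said to be index-based, that is, estimated from the reads against an index of transcripts. Means are given ± SD over the 3 libraries (n = 3). Replicate 2 stood apart from the others. Genes of the mitochondrial chromosome took 7.14% of its counts, against 1.15% in replicate 1 and 1.25% in replicate 3, and a median protein-coding gene at a mean of at least 1 TPM was 0.29 log2 units higher in TPM in replicate 1 than in replicate 2. With TMM scaling, which evens out such shifts, that median difference was 0.00, so the ranges of the members are given on both scales. In index-based TPM the median difference, replicate 1 over replicate 2, was -0.24 log2 units, so its direction depended on the quantification. The macrophage label was met by 8 of 8 markers at 1 TPM or more in every library, with a summed level of 13430 to 16270 TPM.

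Socs3 and Socs1 had the highest means of the family and were also its most uneven members among those above 1 TPM on average. Socs3 averaged 56.5 ± 55.4 TPM and Socs1 14.4 ± 18.1 TPM. Both means rested on replicate 1, and without it Socs3 averaged 25.8 TPM and Socs1 4.1 TPM, below Socs6 (11.2 TPM), Socs4 (8.68 TPM) and Socs7 (5.67 TPM). Socs6 (11.7 ± 0.803 TPM), Socs4 (9.02 ± 0.896 TPM), Socs7 (6.10 ± 1.67 TPM) and Socs5 (4.43 ± 1.31 TPM) formed a middle group, and Cish (0.477 ± 0.621 TPM) and Socs2 (0.463 ± 0.304 TPM) were low, at 55 counts or fewer in any library. A median protein-coding gene at a mean of at least 1 TPM stood at 16.2 TPM. By the 3-library means Socs3 lay above that median and the other 7 members below it, but Socs1 was above it in replicate 1 and Socs3 below it in replicate 2.

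**Figure D1:**
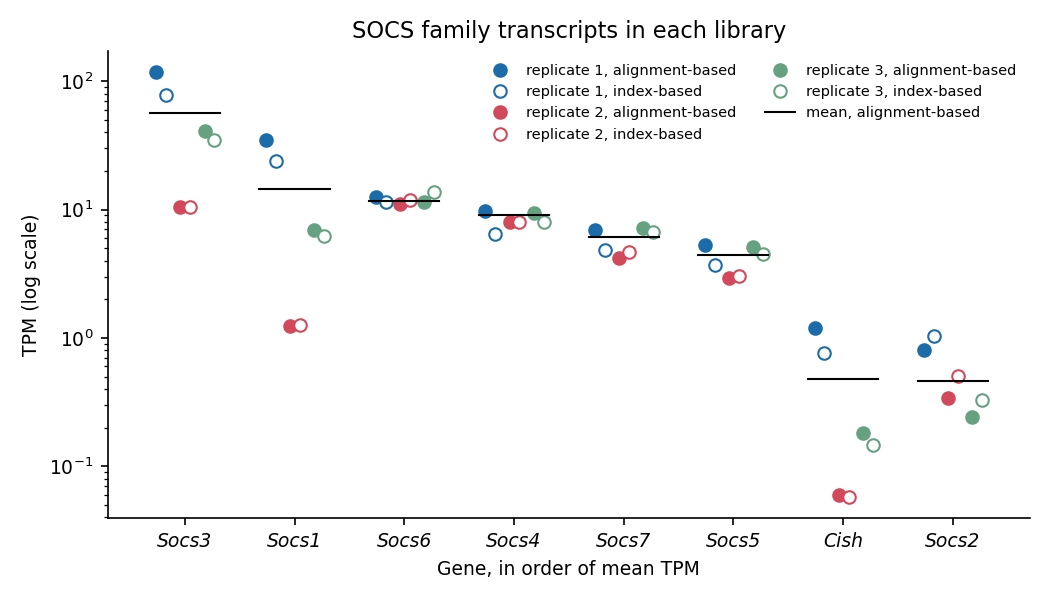
TPM of the 8 SOCS genes in each library on a log axis, with filled points for the alignment-based and open points for the index-based values, and a line at the alignment-based mean. Socs3 runs from 10.5 TPM in replicate 2 up to 118 TPM in replicate 1, Socs1 from 1.23 up to 35.05 TPM, and the Socs6 and Socs4 points lie close together.

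Socs3 (ENSMUSG00000053113.3, chromosome 11, 117966079 to 117970047, minus strand, mm10) had 118 TPM in replicate 1, 10.5 in replicate 2 and 41.0 in replicate 3, from 4591, 1017 and 2910 counts. Replicate 1 was the highest and replicate 2 the lowest, 11.2-fold apart in TPM and 8.72-fold apart in TMM-scaled CPM. The index-based TPM ran the same way, at 78.3, 10.6 and 35.1, with a 7.41-fold range. Nearly all of it was Socs3-201, which took 99.7% of the gene's TPM on average and whose whole reading frame, 225 codons long, lies in 1 exon.

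Socs1 (ENSMUSG00000038037.5, chromosome 16, 10782240 to 10785536, minus strand) had 35.05 TPM in replicate 1, 1.23 in replicate 2 and 6.97 in replicate 3, from 1517, 132 and 552 counts. Its exact Poisson 95% interval, which covers counting error only, was 110 to 157 counts in replicate 2. The 1517 and 552 counts of replicates 1 and 3 lay above that interval. Error from other sources in replicate 2 was not measured. The range was 28.5-fold in TPM, 22.2-fold in TMM-scaled CPM and 19.0-fold in index-based TPM. Both of its transcripts have a reading frame of 212 codons in 1 exon, and Socs1-201 held 87.3 ± 3.71% of the TPM. Socs1 thus ranked 2 of 8 in replicate 1, 6 of 8 in replicate 2 and 5 of 8 in replicate 3.

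Bases upstream of the RefSeq starts of Socs1 and Socs3 are shown (RefSeq, GRCm38.p6, given 5′ to 3′ on the gene's own strand). For Socs1 they are the 250 bases before the start, chr16:10785537-10785786, minus strand. For Socs3 they are the 165 bases at chr11:117969452-117969616, minus strand, which end where a noncoding exon of Socs3-203 begins, 85 bases short of the start. Capitals mark matches on either strand to the interferon-stimulated response element GAAANNGAAA (Socs1) and to the gamma-activated site TTCNNNGAA that STATs can bind (Socs3).
Socs1: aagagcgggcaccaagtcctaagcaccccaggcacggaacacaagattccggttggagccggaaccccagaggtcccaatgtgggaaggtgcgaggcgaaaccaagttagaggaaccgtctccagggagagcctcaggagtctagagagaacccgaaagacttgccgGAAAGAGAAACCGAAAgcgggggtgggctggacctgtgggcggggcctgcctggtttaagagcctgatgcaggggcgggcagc
Socs3: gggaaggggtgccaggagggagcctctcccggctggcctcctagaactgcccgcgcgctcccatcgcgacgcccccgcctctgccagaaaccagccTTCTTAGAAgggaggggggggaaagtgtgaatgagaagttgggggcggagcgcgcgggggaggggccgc
The Socs1 window holds 2 overlapping matches to GAAANNGAAA, the first starting 83 bases before the start, and none to TTCNNNGAA. The Socs3 window holds 1 match to TTCNNNGAA, starting 154 bases before the RefSeq start, and none to GAAANNGAAA. Socs3-201, which held nearly all Socs3 TPM, begins downstream of that start, at 117969186 against 117969366. The bases between those 2 positions, directly before Socs3-201, were not searched. Among 32851 RefSeq promoter windows of 250 bases, 2.98% hold GAAANNGAAA and 7.02% hold TTCNNNGAA on either strand. The windows of Socs4 and Cish, the other 2 members with an entry, hold neither. The Cish window overlaps an exon of Cish-201, which begins upstream of that window, so the bases before Cish-201 were not searched. The Socs4 window overlaps exons of 2 other genes, Wdhd1 and Gm49150. A match describes the letters and shows no binding.

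The middle group was more even than Socs1 and Socs3. Socs4 (ENSMUSG00000048379.9, chromosome 14, 47276931 to 47296102, plus strand), known for acting on the epidermal growth factor receptor, had 9.69, 8.0 and 9.36 TPM in replicates 1, 2 and 3. Its 3 values lay within 1.21-fold in TPM and 1.16-fold in TMM-scaled CPM, and all of them came from Socs4-201. Socs5 (ENSMUSG00000037104.9, chromosome 17, 87107679 to 87137839, plus strand), its closest relative in the family, had 5.29, 2.92 and 5.08 TPM, with replicate 2 below the others. That 1.81-fold range narrowed to 1.38-fold in TMM-scaled CPM. Its full-length transcript Socs5-201, of 536 codons, held 79.1 ± 10.01% of the TPM.

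Socs7 (ENSMUSG00000038485.5, chromosome 11, 97362551 to 97398542, plus strand), which binds insulin receptor substrates, had 6.97, 4.18 and 7.15 TPM, again with replicate 2 lowest, 1.71-fold apart in TPM and 1.33-fold in TMM-scaled CPM. Its 579-codon frame spans 9 coding exons, against 1 coding exon in the leading transcripts of Socs1 and of Socs3 to Socs6. Socs7-201 held 90.1 ± 4.22% of the TPM.

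Socs6 (ENSMUSG00000056153.15, chromosome 18, 88665224 to 88927481, minus strand), known for binding the receptor tyrosine kinase Kit, had 12.6, 11.0 and 11.4 TPM, a range of 1.14-fold in TPM and 1.18-fold in TMM-scaled CPM. Its 9 transcripts were less even than their sum. The short Socs6-208, of 453 bases and 65 codons, took 3.21% of Socs6 TPM in replicate 1, 36.8% in replicate 2 and 3.57% in replicate 3. In replicate 2 that share rested on 39.65 of 1297 counts, because a count on a short transcript weighs more in TPM. The index-based tables gave Socs6-208 22.6%, 33.1% and 25.9%, so the replicates looked alike there and the 2 methods differed in replicates 1 and 3. The 533-codon transcripts Socs6-201, Socs6-202 and Socs6-203 together carried most of the rest, and Socs6-201 (3.94 TPM) and Socs6-203 (3.95 TPM) were level on average by alignment but not by the index (2.66 and 5.16 TPM). With transcripts under 1000 bases left out, a setting chosen after these values were seen, Socs6 stood at 12.2, 6.95 and 11.0 TPM, and replicate 2 was no longer level with the others.

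**Figure D2:**
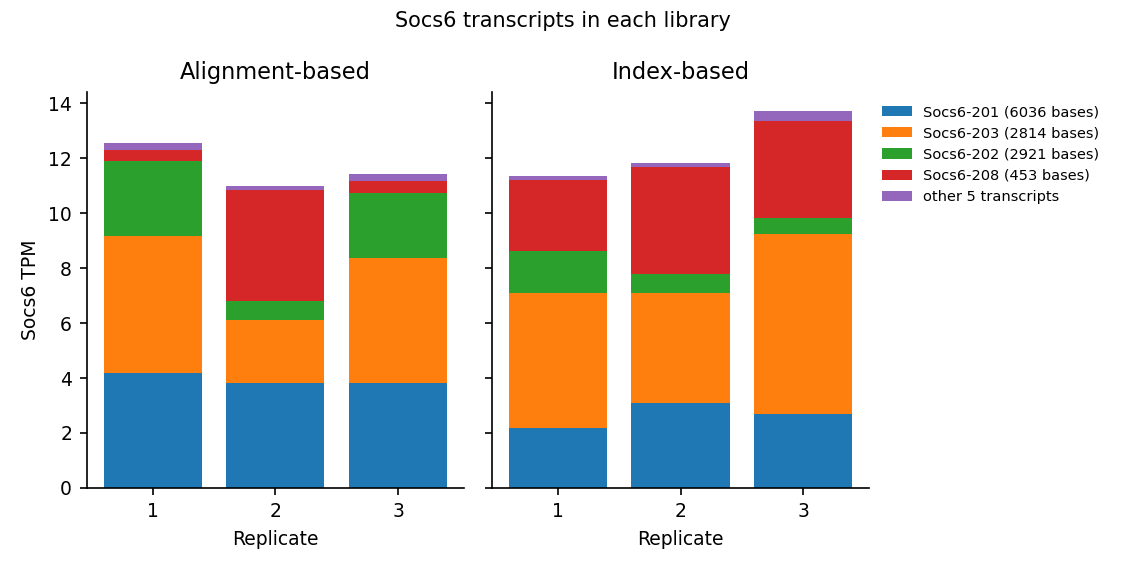
TPM of Socs6 by transcript in each library, stacked from 0, with the alignment-based values on the left and the index-based values on the right. In the alignment-based bars Socs6-208 is wide in replicate 2 (4.05 TPM) and thin in replicates 1 (0.40 TPM) and 3 (0.41 TPM), while the index-based bars give it 2.57, 3.91 and 3.56 TPM.

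Cish and Socs2, which limit STAT5-driven growth hormone, prolactin and interleukin-2 signalling, were the lowest members. Cish (ENSMUSG00000032578.7, chromosome 9, 107296026 to 107302784, plus strand) had 1.19, 0.06 and 0.18 TPM from 55, 7 and 14 counts. The exact Poisson 95% interval of the 7 counts was 2.81 to 14.4. Its levels followed the library order of Socs1 and Socs3, at 19.8-fold in TPM and 15.2-fold in TMM-scaled CPM. Cish shares 479 exon bases with its opposite-strand neighbour Gm17041 and 261 with its opposite-strand neighbour Gm17040. Reads from those bases cannot be told apart if counting ignored strand, and the strand setting is not given in the sources used here. Both neighbours were at 0 counts. The transcript assigned differed by library, with Cish-201 at 65.0% and 86.0% in replicates 1 and 2 and Cish-204 at 100% in replicate 3. Socs2 (ENSMUSG00000020027.18, chromosome 10, 95385362 to 95417180, minus strand) had 0.81, 0.34 and 0.24 TPM from 21, 17 and 15 counts, and its 14 annotated transcripts could not be ranked with so few reads.

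Sequence shared with other genes, which could split reads, was searched for in the annotated transcripts. At 31 bases, none of the sequence of Socs1, Socs3 and Socs5 recurred in a transcript of another gene on either strand, 0.0277% did for Socs7 and 0.527% for Socs4. The shares were 6.55% for Socs2, 7.38% for Socs6 and 10.4% for Cish.

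The order of the levels was then tested within each library, where scaling cancels. A pair of members was called separated where the log2 ratio of TPM + 0.1 had 1 sign in all 3 libraries and a mean above 3 SD, and 15 of 28 pairs were. No p is given, since with 3 libraries the smallest an exact sign-flip test allows is 0.25. Socs3 exceeded Socs1 by 1.75, 2.99 and 2.54 log2 units, a mean of 2.43 ± 0.63, and was separated from it, although without replicate 3 the ratio, at 2.37, no longer met the rule. Socs3 was separated from Socs1, Cish and Socs2 and not from the middle group, with Socs3 over Socs4 at 2.03 ± 1.60, over Socs5 at 3.08 ± 1.32, over Socs7 at 2.62 ± 1.38 and over Socs6 at 1.66 ± 1.65, where the sign turned in replicate 2. Socs1 and Socs6 were not separated (Socs6 over Socs1 at 0.76 ± 2.27), nor were Socs1 and Socs7 (0.20 ± 2.01), and Socs1 was separated only from Socs3 and Cish among the 7 others. In the middle group 4 of 6 pairs were separated, among them Socs7 over Socs5 at 0.46 ± 0.06 and Socs4 over Socs5 at 1.05 ± 0.32, and that second call was lost without replicate 1 (1.15) and without replicate 3 (1.14). Socs6 over Socs4, at 0.37 ± 0.09, was separated too, but not once transcripts under 1000 bases were left out (0.12), and its sign turned in CPM, which ignores length (-0.64). Socs4 over Socs7 (0.59 ± 0.29) and Socs6 over Socs7 (0.96 ± 0.37) were not separated, and Cish and Socs2 were not separated from each other (Socs2 over Cish at 0.41 ± 0.99).

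Replicate 2 had an order of its own. Socs6 led there with 11.0 TPM, ahead of Socs3 (10.5 TPM) and Socs4 (8.0 TPM), while Socs3 led in replicates 1 and 3. Without transcripts under 1000 bases Socs3 ranked 1 of 8 in each of the 3 libraries.

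**Figure D3:**
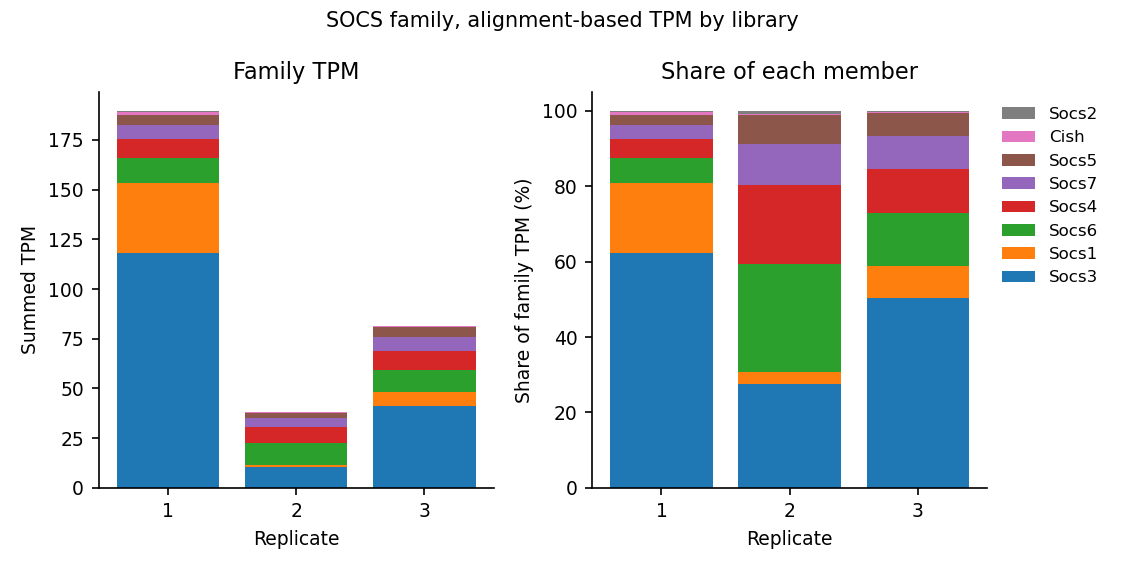
Summed alignment-based TPM of the 8 members in each library (left) and each member's share of that sum in percent (right), stacked from 0 in the order of mean TPM. Replicate 1 sums to 190 TPM, replicate 2 to 38.2 and replicate 3 to 81.4, and the parts for Socs3 and Socs1 differ most.

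Added up, the family gave 190 TPM in replicate 1, 38.2 in replicate 2 and 81.4 in replicate 3. Socs3 supplied 62.3%, 27.5% and 50.4% of these sums and Socs1 18.5%, 3.22% and 8.56%. The remaining 6 members together gave 36.5, 26.5 and 33.4 TPM, and 28.1, 28.1 and 33.5 TPM by the index. Most of the difference between libraries in family TPM therefore sat in Socs3 and Socs1.

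How far each member varied was compared with counting noise and with other genes. A chi-square test on rounded expected counts, with Benjamini-Hochberg adjustment over 11932 genes, called 7 of 7 members that passed the filter on low counts, Cish being the one left out by it. It called 87.9% of all genes, so the members' share says nothing particular about them.

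A ratio of at least 4 between the highest and lowest library was reached by 8.73% of the 10003 protein-coding genes at a mean of at least 1 TPM, and by 2 of 6 members, Socs1 and Socs3. In TMM-scaled CPM the background was 4.68% and the members were again those 2. A range as wide as that of Socs1 was shown by 0.42% of these genes in TPM and one as wide as that of Socs3 by 1.11%. Ranges at least as wide as those of Socs4 and Socs6 were shown by 89.5% and 94.7%. For Socs5 and Socs7 these shares were 46.2% and 52.1%, near the middle of these genes, and 70.2% and 74.8% in TMM-scaled CPM. Being highest in replicate 1 and lowest in replicate 2 was common, at 21.3% of these genes in TPM, and 5 of 6 members did so, but in TMM-scaled CPM only 3 of 6 did, against 19.7% of genes. Between replicates 1 and 3 alone Socs1 differed 5.03-fold in TPM and 5.38-fold in TMM-scaled CPM, and Socs3 2.88-fold and 3.09-fold, so without replicate 2 Socs1 was the 1 member past 4-fold, where the background was 0.507%. Between replicates 3 and 2, without replicate 1, the TPM ratios were 5.67 for Socs1 and 3.90 for Socs3 (4.12 and 2.82 in TMM-scaled CPM), and Socs1 was again the 1 member, at a background of 6.56%.

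**Figure D4:**
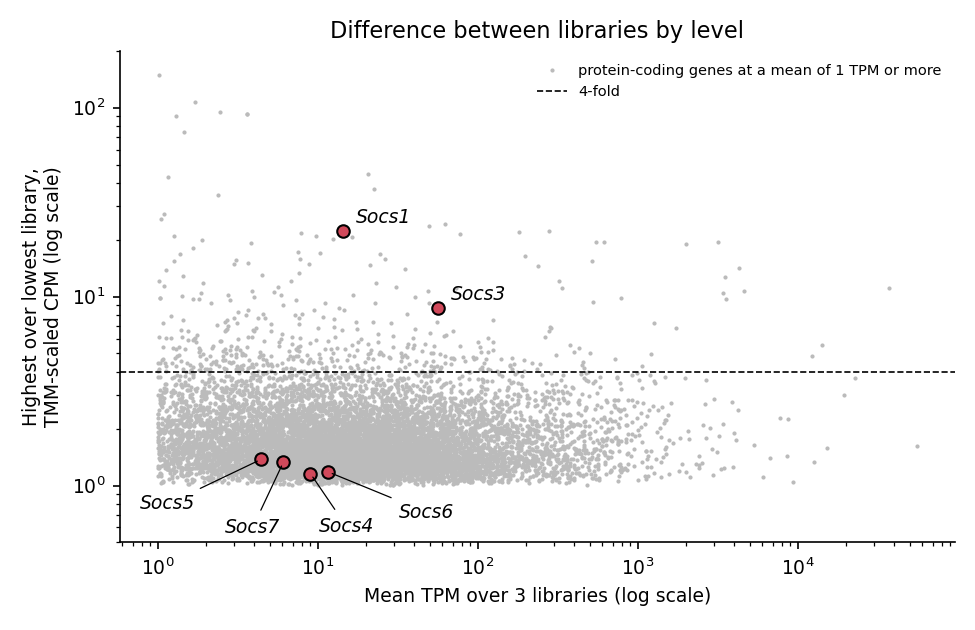
Highest over lowest library in TMM-scaled CPM against mean TPM, both on log axes, for 9979 protein-coding genes at a mean of 1 TPM or more (24 more had a library at 0 and are not drawn), with a dashed line at 4-fold. Socs1 (22.2-fold) and Socs3 (8.72-fold) lie above the line and Socs4 to Socs7 (1.16-fold to 1.38-fold) near the bottom of the cloud.

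Against genes of like abundance, edgeR's quasi-likelihood residual F test, one-sided, called no gene at an adjusted p under 0.05 (0.0% of 11932). At an unadjusted p under 0.05 it picked out 503 genes, 4.22%, and 2 of 7 members, Socs1 and Socs3. Socs1 had an F of 32.8 (unadjusted p = 0.00205, adjusted p = 0.933 by edgeR) and Socs3 an F of 18.4 (unadjusted p = 0.00677, adjusted p = 0.933 by edgeR). An F as large as that of Socs1 was found in 11 genes and one as large as that of Socs3 in 44. DESeq2, which marks dispersion outliers, marked 17 genes and none of the members. The Socs1 result depended on the setting. Its edgeR adjusted p was 0.0241 without a filter on low counts, 0.0260 without replicate 2 and 0.0230 without replicate 3. These settings called 64, 7 and 11 genes in all, against 0 in the full fit. Under the other edgeR alternatives the adjusted p of Socs1 was 0.776 to 0.937. For Socs3 the lowest edgeR adjusted p under any alternative was 0.128. Socs4 (F = 0.0951), Socs5 (F = 0.319), Socs6 (F = 0.120) and Socs7 (F = 0.320) lay below the trend for their level, and edgeR's adjusted p was 0.999 for each.

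Markers of other cells also differed in replicate 2. Neutrophil markers summed to 3.86, 21.7 and 5.40 TPM in replicates 1, 2 and 3, with S100a9, S100a8 and Ngp, 3 of the 5 listed, more than 4-fold apart and highest in replicate 2, while Camp, at 0.70, 0.18 and 0.27 TPM, was highest in replicate 1 and Ly6g was at 0 counts. T cell markers summed to 20.0, 114 and 33.6 TPM, of which Cd4 alone gave 20.0, 113 and 33.6. The defining T cell genes Cd3e, Cd3g and Trac had 10, 10 and 8 counts in replicate 2 and 0 counts elsewhere. B cell markers summed to at most 3.22 TPM with Cd79a at 0, natural killer markers to at most 0.19 TPM with Nkg7 at 0, dendritic cell markers to at most 0.85 TPM and fibroblast markers to at most 0.67 TPM. Mast cell markers reached 0.04 TPM and the 3 erythroid markers were at 0 counts. The part of these markers, and of the mitochondrial share, in the Socs1 and Socs3 values was not tested. In bulk RNA, fewer cells of a type and less RNA per cell cannot be told apart.

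The 2 ways of quantifying the same reads were compared next. The ratio of alignment-based to index-based TPM had a median over detected protein-coding genes of 1.39 in replicate 1, 0.960 in replicate 2 and 1.08 in replicate 3. In replicate 1 Socs3 (1.51), Socs4 (1.502), Socs1 (1.47), Socs5 (1.44) and Socs7 (1.44) lay near that general shift and Socs6 (1.11) below it. So the alignment-based tables place replicate 1 higher for most members than the index-based tables do. Socs4 shows it, highest in replicate 1 by alignment (9.69 TPM) and lowest there by the index (6.45, 7.98 and 8.001 TPM in replicates 1, 2 and 3). On log2(TPM + 1), limma called 0.392% of 10203 genes higher and 1.26% lower by alignment, at an adjusted p under 0.05 and a difference of at least 1 log2 unit. It called none of the 6 members tested. Their mean differences, alignment-based minus index-based, ran from -0.07 for Socs6 to 0.27 for Socs3 with a standard error of 0.18, and limma's adjusted p was 0.743 to 0.867. The leading transcript by mean TPM was the same in both for 8 of 8 members. For Socs2 and Cish it rested on 55 counts or fewer in any library, too few to rank transcripts. For Socs6 the alignment-based lead of Socs6-203 over Socs6-201 was 3.95 to 3.94 TPM.

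The genes around the family were counted by role. Of the JAK and STAT genes, 11 of 11 stood at 1 TPM or more in every library. Among the higher ones were Stat2 (437 ± 93.4 TPM), which carries interferon signals, Stat3 (112 ± 20.6 TPM), the target of interleukin-6 and interleukin-10 signals, and the kinase Jak2 (100.3 ± 24.0 TPM). Jak3 (10.7 ± 3.35 TPM) and Stat4 (2.02 ± 0.930 TPM) were lowest. None was 4-fold apart between libraries.

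Of the 34 receptor chains, 22 reached 1 TPM in every library. The common gamma chain Il2rg (554 ± 15.0 TPM), Il10rb (237 ± 37.3 TPM), the growth factor receptor Csf1r (228 ± 10.5 TPM) and the interferon receptor chain Ifnar2 (187 ± 37.8 TPM) were highest. Lepr and Prlr, receptors for leptin and prolactin, were at 0 counts, which allows up to 0.0904 and 0.0782 TPM in replicate 1 at a limit of 3 counts. The shared gp130 chain Il6st, the receptor on which Socs3 acts and a gene chosen after its values were seen, had 9.83, 11.4 and 13.2 TPM and so did not share the library order of Socs3. The interleukin-12 receptor chain Il12rb1, also named after its values were seen, was the 1 chain past 4-fold in TPM, at 60.7, 14.8 and 42.3 TPM, and 3.39-fold apart in TMM-scaled CPM. Il12rb2, its partner chain and named likewise, had 3.27, 11.4 and 3.51 TPM, was highest in replicate 2, and was the 1 chain past 4-fold in TMM-scaled CPM (4.12-fold, unadjusted p = 0.0275 and adjusted p = 0.933 by edgeR's quasi-likelihood test).

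Of 20 ligands known to induce SOCS genes, 8 reached 1 TPM in every library. The interleukin-27 subunit Ebi3 had 260, 170 and 322 TPM, Il15 had 283, 136 and 208 TPM, Il12b had 40.4, 24.7 and 68.6 TPM, and the other interleukin-27 subunit, Il27, had 71.0, 14.0 and 16.1 TPM. Il13 and Ifna4 were at 0 counts, with limits of 0.186 and 0.578 TPM in replicate 1.

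Of these 8 ligands, 4 were 4-fold apart or more in TPM and in TMM-scaled CPM. These were Il27 and, named after their values were seen, Il6, Osm and Ifnb1, and each was highest in replicate 1, as Socs1 and Socs3 were. The count rested on replicate 1, since between replicates 3 and 2 alone 0 of the 8 were 4-fold apart. Of protein-coding genes at a mean of at least 1 TPM, 8.73% were 4-fold apart in TPM and 4.68% in TMM-scaled CPM. The share among genes at 1 TPM or more in every library, the limit used for the 8 ligands, was not computed. Il6, which signals through gp130, had 62.9, 3.25 and 7.90 TPM, a 19.4-fold range, and Osm, of the same cytokine family, had 8.81, 1.55 and 4.2 TPM. Ifnb1, the interferon-beta gene, had 9.90, 1.99 and 2.39 TPM and Csf2, which reached a mean of 1 TPM only through replicate 1 and is likewise named after its values were seen, had 7.80, 0.95 and 0.56 TPM. Il10, also named after its values were seen, had 22.9, 34.7 and 33.6 TPM and was lowest in replicate 1. By edgeR's quasi-likelihood test 2 of the 8 ligands that passed the filter had an unadjusted p under 0.05, Il6 (0.00271) and Il27 (0.0187), and none passed after adjustment (0.933 for each). Of all 11932 genes in that test, 4.22% had an unadjusted p under 0.05.

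**Figure D5:**
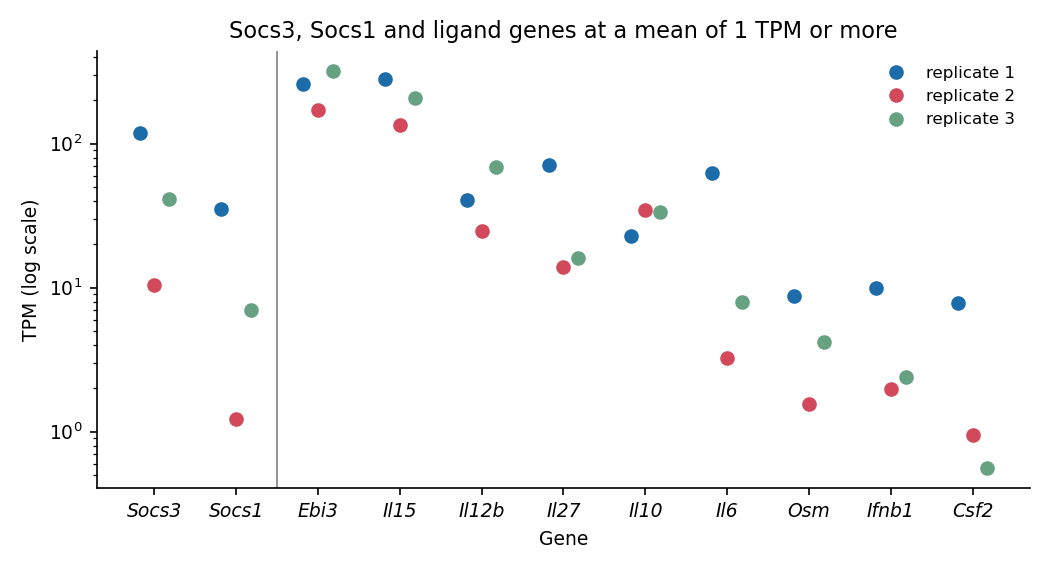
TPM on a log axis of Socs3 and Socs1 (left of the line) and of the 9 ligand genes at a mean of 1 TPM or more, with 1 point for each library. For Socs3, Socs1, Il15, Il27, Il6, Osm and Ifnb1 replicate 1 is highest and replicate 2 lowest, and for Il10 replicate 1 is lowest. In TMM-scaled CPM, not drawn, Socs3, Socs1, Il6 and Osm keep that order, while Il15, Il27 and Ifnb1 are lowest in replicate 3. Among protein-coding genes at a mean of at least 1 TPM, 21.3% are highest in replicate 1 and lowest in replicate 2 in TPM. In TMM-scaled CPM 19.7% are.

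The ubiquitin ligase that the SOCS box recruits was expressed throughout, with 12 of 12 partners at 1 TPM or more in every library. Elob (202 ± 121 TPM) and Eloc (139 ± 51.3 TPM), the elongins that bind the box, the conjugating enzyme Ube2m (172 ± 22.9 TPM) and the cullin modifier Nedd8 (132 ± 41.8 TPM) were highest. Cul2 (23.8 ± 2.96 TPM) and Cul5 (10.5 ± 2.00 TPM), the cullin scaffolds, were lowest. Elob was the 1 partner past 4-fold in TPM, at 289, 63.4 and 253 TPM, and not in TMM-scaled CPM (3.19-fold).

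Among 28 other proteins with a SOCS box, 12 reached 1 TPM in every library and 7 were at 0 counts. The list was led by Wsb2 (78.9 ± 13.8 TPM), Wsb1 (62.7 ± 29.0 TPM), Asb8 (22.9 ± 7.16 TPM) and Spsb2 (22.2 ± 16.8 TPM), and Asb9 and Rab40b were among those at 0 counts. Spsb2, which binds inducible nitric oxide synthase, had 28.3, 3.19 and 35.1 TPM, with an unadjusted p of 0.0159 and an adjusted p of 0.933 by edgeR's quasi-likelihood test. It was lowest in replicate 2, as Socs1 and Socs3 were, and highest in replicate 3. Neurl2, named after its values were seen, was the other gene of this list at a mean of at least 1 TPM that was past 4-fold, at 3.35, 0.73 and 4.82 TPM.

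Of 18 other brakes on JAK-STAT signalling, 17 were at 1 TPM or more in every library. Usp18, which blocks the interferon receptor, stood at 598 ± 211 TPM, the phosphatase Ptpn6 at 486 ± 10.2 TPM, the phosphatase Ptprc at 231 ± 21.5 TPM and Ptpn1 at 158 ± 112 TPM. The Ptpn1 mean rested on replicate 2, with 93.2, 287 and 93.6 TPM in replicates 1, 2 and 3. In TMM-scaled CPM Ptpn1 was 1.22-fold apart and highest in replicate 1. Pim2 (4.94 ± 2.61 TPM) and the adaptor Stap2 (0.137 ± 0.0839 TPM) were lowest. The kinase Pim1, named after its values were seen, was the 1 gene of this list at a mean of at least 1 TPM that was past 4-fold in TPM, at 227, 52.8 and 127 TPM, and 3.89-fold apart in TMM-scaled CPM, with an unadjusted p of 0.0411 and an adjusted p of 0.933 by edgeR.

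Of 11 substrates and partners outside receptors, 9 reached 1 TPM in every library. Sirpa (1115 ± 106 TPM), an inhibitory receptor of macrophages, the exchange factor Vav1 (186 ± 72.9 TPM), the NF-kappa-B subunit Rela (78.6 ± 64.8 TPM) and the kinase Irak1 (26.9 ± 0.718 TPM) were highest. Rela was past 4-fold in TPM, at 44.7, 153 and 37.8 TPM, and 1.98-fold apart in TMM-scaled CPM. The insulin receptor substrates were lowest, with Irs2 at 0.653 ± 0.240 TPM and Irs1 at 1 count in replicate 3 and 0 elsewhere. None of the genes of these 7 lists passed edgeR's test after adjustment, and none met both limits of the limma comparison. The ligand genes Il4 (-0.91, adjusted p = 2.61e-05 by limma) and Il23a (-0.58, adjusted p = 0.0462 by limma), both lower by alignment, fell short of 1 log2 unit. By alignment both were near the floor, Il4 at 0, 3 and 1 counts and Il23a at 13, 1 and 0 in replicates 1, 2 and 3. With alignment-based means of 0.107 and 0.233 TPM, they met the limit of 1 TPM in either quantification only through their index-based values.

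The protein-coding genes with levels most like those of the leading members, by Euclidean distance of log2(TPM + 1) over the 3 libraries, were named last. Nearest to Socs3 were Cebpb (distance 0.66, at 112, 13.9 and 60.2 TPM), Sdf2l1 (0.74) and Aldh1b1 (0.79). Nearest to Socs1 were Rps27rt (0.31, at 29.4, 0.95 and 7.05 TPM), Rps12-ps3 (0.89) and Rpl9-ps6 (0.98), whose sequences resemble those of ribosomal protein genes, so their counts are uncertain. Nearest to Socs6 were Brd1 (0.05, at 12.1, 11.1 and 11.4 TPM), Usp33 (0.06) and Unk (0.07).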

How the data were processed

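Polyadenylated RNA of 3 libraries (1 group) was quantified in 2 ways against mm10 transcripts of GENCODE M21, per notes deposited beside the tables. The aligner, counting tools and strand setting were not given in the sources used here. Per the file headers, the deposited alignment-based tables hold expected counts, TPM and each transcript's percent of its gene, and the deposited index-based tables hold estimated counts and TPM. Entries of no annotated gene, 0.0875%, 0.0464% and 0.0636% of counts, stayed out of tests and library sizes. Index-based values were summed to genes.

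Expected counts were rounded. R 4.3.3, edgeR 4.0.16 (TMM, filterByExpr, quasi-likelihood fit), limma 3.58.1 and DESeq2 1.42.0 were used, with Benjamini-Hochberg adjustment over all genes tested and a threshold of 0.05. The chi-square, quasi-likelihood and limma tests were tried on simulated data, and the DESeq2 marking and the rule for separated pairs were not. A minimum recovery was required of the chi-square and limma tests only. Named genes are the 8 members, the 4 highest and 2 lowest of each list by mean TPM, the 3 nearest genes of the 3 leading members, and others marked as chosen after their values were seen. Some genes that this rule names are not reported here. The members and lists were chosen with earlier results of these data known. RefSeq promoter windows were found for 4 members.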

Additional observations from a re-analysis of the deposited data

How the results depend on the processing

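No paired analysis was possible because the libraries form 1 group and no replicate number links samples of different groups; comparisons within a library are of values of that library. With no filter on low counts the quasi-likelihood test called 64 genes, DESeq2 marked 17, and leaving out 1 library gave 7 to 20, against 0 in the full fit. Without 1 library the chi-square test called 6695 to 9696 genes, the fewest without replicate 2, against 10491. The limma comparison of quantifications called 169 genes, 258 with pseudocount 0.1 and 0 with no filter on low values. Genes 4-fold apart numbered 873, 468 in TMM-scaled CPM and 51 to 654 without 1 library, the fewest without replicate 2, all of these alternatives chosen after seeing the data. Separated pairs numbered 10 to 16 without 1 library and 15 under each other setting, among them the one without short transcripts, also chosen after seeing the data. Signs turned for Socs6 over Socs4 in CPM (-0.64), for Cish over Socs2 in CPM (0.12) and without replicate 2 (0.11, range -0.87 to 0.11), and for Socs1 over Socs6 without replicate 2 (0.38, range -1.88 to 0.38). The difference between quantifications turned for Socs6 without replicate 3 (0.019, range -0.17 to 0.019) and for Socs7 without replicate 1 (-0.028, range -0.028 to 0.26). Of 63 alternative log2 ratios of named pairs, 52 kept their sign and their side of the rule. Of the members' chi-square calls, 4 of 42 were lost, each without 1 library (Socs2, Socs4, Socs5 and Socs6). The cause of these changes was not tested. Without replicate 1 the mean moved most for Socs1 (4.1 TPM), Socs3 (25.8 TPM) and Cish (0.12 TPM), whose SDs are close to or above their means, so a move within 1 SD says little for them. At the depth of these libraries Cish and Socs2 rest on 7 to 55 counts each, so their order and transcripts are not resolved.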
